A study of Homo sapiens with 24 samples.

Results

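The mitochondrial carrier family comprises the SLC25 proteins and the uncoupling proteins UCP1, UCP2 and UCP3. Its members were taken by name, as every gene symbol in the deposited count files that begins with SLC25 together with the 3 UCP genes. Of the 25728 symbols in the files, 57 met that rule, and the 46 with at least 1 CPM (count of the gene scaled to library size) in 4 or more of the 24 libraries were kept. These 46 hold 43 protein-coding genes and 3 antisense RNAs named after a member. At the edge of the rule, UCP3 was kept with exactly 4 libraries at that level, the lowest of them at 1.01 CPM and SLC25A48 reached 1 CPM in 9 libraries, whereas SLC25A41 and SLC25A18 stayed outside with highest levels of 0.547 and 0.463 CPM. The other symbols left out were UCP1, SLC25A2, SLC25A27, SLC25A31, SLC25A47, SLC25A52 and SLC25A30-AS1, each with at most 0.293 CPM in any library, and the pseudogenes SLC25A3P1 and SLC25A51P1, which had no count.

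Mitochondrial carriers sit in the inner mitochondrial membrane and move nucleotides, phosphate, organic acids, amino acids, cofactors and iron between the cytosol and the matrix. The ADP/ATP carriers and the phosphate carrier supply ATP synthase with its substrates and export its product, and the aspartate/glutamate carriers form part of the malate-aspartate shuttle. UCP2 is a widely expressed uncoupling protein that is abundant in blood cells and can export small dicarboxylic acids from the matrix, and SLC25A37 (mitoferrin 1) imports iron for heme synthesis in erythroid precursors.

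RNA was sequenced from 3 human acute myeloid leukemia lines, namely TF-1, UT-7 and also UCSD-AML1, which the series describes as driven by EVI1. There were 6 groups of 4 libraries, 1 treated and 1 vehicle group per line, and treatment was 24 h at 3 mM cyclocreatine. Cyclocreatine is an analog of creatine that creatine kinase can phosphorylate, and the series title names the creatine kinase pathway as the target. TF-1 came from an erythroleukemia and UT-7 from a megakaryoblastic leukemia, both lines depend on a growth factor, and each line is a single established culture and not a sample of patients.

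Library totals ran from 12794998 to 21200662 counts, and 16086 to 17102 genes had a count in a library. Levels below are CPM over totals scaled by TMM (trimmed mean of M-values, an adjustment for composition), as the mean ± SD of 4 libraries. Changes are log2 fold changes from edgeR's quasi-likelihood test, fitted on 14588 genes in all 24 libraries, and a gene was called where its Benjamini-Hochberg adjusted p was under 0.05. All 46 members were among the genes tested. Separate cultures are not stated in the labels, so p-values measure the spread between these libraries, which may be technical. In bulk RNA, fewer cells of a kind and less RNA per cell cannot be told apart. TF-1 cyclocreatine replicate 1 had the highest level of its group for several members, and TF-1 changes that gained or lost a call without it are given both ways. Erythroid markers (8 genes) summed to 702 to 738 CPM in TF-1 vehicle, 336 to 355 CPM in UT-7 vehicle and 90.9 to 94.6 CPM in UCSD-AML1 vehicle. AHSP was at 0 in every UCSD-AML1 library.

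In vehicle-treated cells the family was dominated by few genes. Levels of different genes are compared here per kilobase of transcript, using the median length of the principal transcripts in GENCODE 29. The 3 leading members in each line's vehicle group were SLC25A6 and SLC25A5, which exchange ADP for ATP, and SLC25A3, which imports phosphate. In TF-1 they stood at 709, 304 and 412 CPM per kilobase in that order, in UT-7 at 283, 266 and 314, and in UCSD-AML1 at 374, 314 and 297. UCP2 followed at 125, 62.9 and 49.98 CPM per kilobase in TF-1, UT-7 and UCSD-AML1, at ranks 4, 5 and 6 of the family. SLC25A39, which carries glutathione into the matrix, stood at 90.4, 89.6 and 65.4 CPM per kilobase. SLC25A4, the ADP/ATP carrier of heart and muscle, made up 0.539%, 0.493% and 0.332% of the ADP/ATP carrier signal per kilobase in the vehicle groups of TF-1, UT-7 and UCSD-AML1. That share depends on the 4440 bases taken as its transcript length, the longest of the 3.

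Members differed widely in level between the lines before treatment. Between vehicle groups, edgeR called 18 members higher and 14 lower in TF-1 than in UT-7, where 79.7% of all genes were called in either direction (41% higher, 38.7% lower). In TF-1 against UCSD-AML1 20 were higher and 18 lower (84% of all genes called, 40.6% higher and 43.3% lower), and in UT-7 against UCSD-AML1 24 were higher and 17 lower (81.5% called, 40% higher and 41.5% lower). The members' shares called, 69.6%, 82.6% and 89.1%, lay near those backgrounds. The 4 libraries of each group did not overlap for 31, 37 and 42 members in that order, beside 75.2%, 79.7% and 80% of all genes.

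The mitoferrin SLC25A37 showed a wide gap. It stood at 175 ± 7.85 CPM in TF-1 vehicle, 224 ± 6.60 CPM in UT-7 vehicle and 25.5 ± 0.542 CPM in UCSD-AML1 vehicle (SD, n = 4 each), so that UT-7 was 8.78-fold and TF-1 6.85-fold above UCSD-AML1. Its log2 differences were 3.13 ± 0.05 (SE, adjusted p = 1.87e-37, edgeR) and 2.78 ± 0.05 (adjusted p = 1.32e-35, edgeR). The second mitoferrin, SLC25A28, which is expressed in many tissues, was instead highest in UCSD-AML1, at 17.8 ± 1.91, 20.9 ± 1.42 and 29.9 ± 1.92 CPM in TF-1, UT-7 and UCSD-AML1 vehicle. SLC25A37 therefore made up 74.7% of mitoferrin signal per kilobase in TF-1 vehicle (lowest to highest library 72.5% to 77.5%), 76.3% in UT-7 (75.5% to 77.5%) and 20.4% in UCSD-AML1 (19.9% to 21.8%). Summed erythroid markers and SLC25A37 were both lowest in UCSD-AML1 vehicle. Between the other lines the markers were higher in TF-1 and SLC25A37 was higher in UT-7. The part of erythroid content in the level was not tested.

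SLC25A21, a carrier of oxoadipate, was at 26.6 ± 0.559 CPM in UT-7 vehicle and 6.05 ± 0.759 CPM in TF-1 vehicle, and had no count in any of the 8 UCSD-AML1 libraries. Against a floor of 3 counts per library, which is 0.21 CPM in the smallest UCSD-AML1 vehicle library and covers counting error only, UT-7 was at least 127-fold and TF-1 at least 28.8-fold higher. Its antisense RNA SLC25A21-AS1 and SLC25A48, a member of little known cargo, were also without a count in UCSD-AML1 and stood at 1.18 to 1.59 CPM in the vehicle groups of the other lines. The aspartate/glutamate carrier SLC25A12 (aralar) was at 41.1 ± 3.01 CPM in TF-1 and 41.8 ± 1.61 CPM in UCSD-AML1, and 3.45-fold and 3.51-fold lower in UT-7, at 11.9 ± 1.31 CPM. TF-1 and UCSD-AML1 did not differ in SLC25A12 beyond their spread (log2 difference -0.03 ± 0.06, adjusted p = 0.713, edgeR). SLC25A24, a calcium-regulated ATP-Mg/phosphate carrier, was 4.58-fold lower in TF-1 than in UT-7 (15.2 ± 1.24 against 69.9 ± 2.73 CPM) and 4.07-fold lower than in UCSD-AML1 (62.1 ± 3.07 CPM).

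SLC25A42, which imports coenzyme A, stepped down across the lines from 48.2 ± 1.13 CPM in TF-1 to 15.01 ± 1.15 in UT-7 and 7.44 ± 0.566 in UCSD-AML1, and all 3 pairs were called. SLC25A6 was 2.50-fold higher in TF-1 than in UT-7 (1462 ± 10.3 against 584 ± 16.8 CPM). SLC25A25-AS1 was 2.94-fold lower in TF-1 than in UT-7 (4.67 ± 0.964 against 13.7 ± 2.15 CPM). SLC25A30, a relative of the uncoupling proteins, was 3.36-fold higher in UCSD-AML1 than in UT-7 (85.2 ± 2.95 against 25.4 ± 1.51 CPM). Members of little known cargo also separated the lines: SLC25A43 was 2.51-fold higher in UT-7 than in UCSD-AML1, and SLC25A35 and SLC25A45 were 3.43-fold and 2.48-fold lower in TF-1 than in UCSD-AML1. SLC25A35 was 4.22-fold lower in UT-7 than in UCSD-AML1, where it stood at 6.14 ± 0.287 CPM.

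Cyclocreatine changed members in both directions in each line. In TF-1, edgeR called 12 of the 46 members higher and 10 lower, where 56% of all genes were called (26.7% higher, 29.3% lower). Scaled by library totals only, the TF-1 split was 9 higher and 15 lower, and without TF-1 cyclocreatine replicate 1 it was 11 and 14. The members that gained a call without that library were SLC25A34 (0.80, adjusted p = 0.0392), SLC25A35 (-0.64, 0.0322), SLC25A25 (-0.18, 0.0460), SLC25A22 (-0.16, 0.0217) and SLC25A4, and those that lost one were SLC25A1 and SLC25A39. In UT-7 8 members were higher and 16 lower, where 45.9% of all genes were called (22.5% higher, 23.3% lower). In UCSD-AML1 10 were higher and 8 lower, where 40.5% of all genes were called (19.1% higher, 21.3% lower). Without UCSD-AML1 cyclocreatine replicate 2 only 5 members were called lower in that line. The members' shares called, 47.8%, 52.2% and 39.1%, were close to the share over all genes in each line, and their median log2 changes were 0.05, -0.14 and 0.01 beside -0.01, 0 and 0 over all genes.

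The 4 treated libraries lay wholly outside the 4 vehicle libraries for 18 members in TF-1 (40.2% of all genes), 27 in UT-7 (47.4%) and 20 in UCSD-AML1 (44.2%). Across the lines, 5 members were called higher in all 3 (8.76% of all genes) and 6 lower in all 3 (8.97%). With 1 library left out, a check chosen after seeing the data, these counts were 4 to 5 and 5 to 6. Another 2 were called higher in 1 line and lower in another (6.65%), 21 were called in some lines in 1 direction, and 12 in none, where 76.4% of all genes were called in at least 1 line. The map of changes by role shows that the ADP/ATP and phosphate carriers and UCP2 hold most of the increases shared by the lines.

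**Figure D1:**
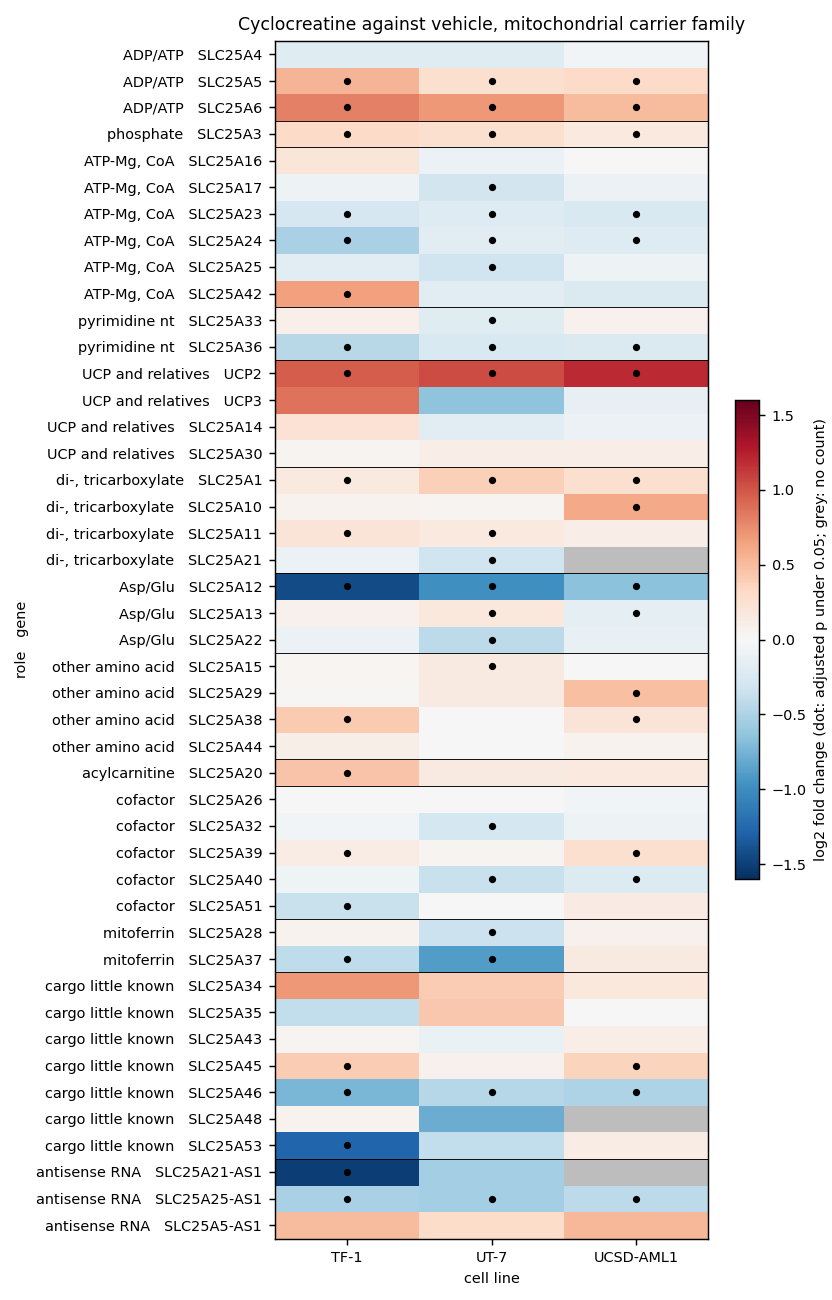
Log2 fold change of cyclocreatine against vehicle for 45 of the members (rows, grouped by role) in the 3 lines (columns), with a dot where the adjusted p was under 0.05 and grey where no library of that line had a count. UCP2, SLC25A6, SLC25A5, SLC25A3 and SLC25A1 carry a dot and a positive value in all 3 columns, and SLC25A12 has the lowest values among members called in all 3.

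UCP2 had the largest increase of any member in each line. It stood at 264, 267, 261 and 268 CPM in the 4 TF-1 vehicle libraries and at 554, 512.5, 501 and 505 CPM with cyclocreatine. In UT-7 it was at 129.7, 134, 136 and 131 CPM with vehicle and at 291, 273.5, 253 and 273 CPM with cyclocreatine. In UCSD-AML1 it was at 106, 108, 104 and 104 CPM with vehicle and at 236, 238, 246 and 245 CPM with cyclocreatine. Every treated library lay above every vehicle library of its line, and the groups did not overlap.

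The UCP2 changes were 0.97 ± 0.04 in TF-1 (log2, SE; 1.95-fold, adjusted p = 5.36e-23, edgeR), 1.04 ± 0.04 in UT-7 (2.05-fold, adjusted p = 5.50e-23) and 1.19 ± 0.04 in UCSD-AML1 (2.29-fold, adjusted p = 1.08e-24). The line with the lowest vehicle level had the largest fold increase. The difference in effect between TF-1 and UCSD-AML1 was called (-0.23 ± 0.05, adjusted p = 0.00110, edgeR). The difference between UT-7 and UCSD-AML1 (-0.15 ± 0.05, adjusted p = 0.0328) was lost when any 1 of 7 libraries was left out, with adjusted p up to 0.120 without UT-7 cyclocreatine replicate 3, and under the replicate block (0.068). UCP3, SLC25A14 (UCP5) and SLC25A30 were not called in any line. UCP3, best known from skeletal muscle, was at 0 to 1.52 CPM in single libraries, and its TF-1 change of 0.87 ± 0.60 (adjusted p = 0.227, edgeR) was 0.01 without cyclocreatine replicate 1. SLC25A30, the more abundant of these in every group, had changes of 0.04, 0.10 and 0.11.

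The ADP/ATP carriers split by isoform. SLC25A6 (ANT3), the leading ADP/ATP carrier per kilobase in each vehicle group, was at 1452, 1461, 1460 and 1477 CPM in TF-1 vehicle and at 2953, 2424, 2476 and 2386 CPM with cyclocreatine. In UT-7 it was at 588, 595, 595 and 559 CPM with vehicle and at 982, 951, 895 and 968 CPM with cyclocreatine. In UCSD-AML1 it was at 782, 776, 762 and 761 CPM with vehicle and at 1057, 1070, 1109 and 1117 CPM with cyclocreatine. All treated libraries were above all vehicle libraries in each line, and TF-1 cyclocreatine replicate 1 lay well above the other 3 of its group.

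SLC25A6 rose by 0.81 ± 0.04 for TF-1, 0.70 ± 0.04 for UT-7 and 0.50 ± 0.04 for UCSD-AML1 (log2, SE; adjusted p = 6.34e-18, 7.30e-16 and 7.62e-12, edgeR). Without the high TF-1 library the TF-1 change was 0.73. The increase was smaller in UCSD-AML1 than in TF-1 (difference 0.31 ± 0.06, adjusted p = 0.000126) and than in UT-7 (0.20 ± 0.06, adjusted p = 0.0126). SLC25A6 lies in the pseudoautosomal region shared by the X and Y chromosomes and has processed pseudogenes, as do SLC25A5 and SLC25A3, so that the levels of these 3 genes are uncertain to the extent that reads were split between copies.

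SLC25A5 (ANT2), the isoform of dividing cells, rose less. It was at 374, 400, 391 and 383 CPM in TF-1 vehicle and at 628, 542.5, 542 and 530.5 CPM with cyclocreatine. In UT-7 it was at 333, 345, 344.5 and 334 CPM with vehicle and at 411, 414, 371 and 412 CPM with cyclocreatine, and in UCSD-AML1 at 398, 399, 409.7 and 395 CPM and at 493, 482, 518 and 489 CPM. The groups did not overlap in any line, and the changes were 0.54 ± 0.04, 0.25 ± 0.04 and 0.31 ± 0.04 (adjusted p = 4.65e-14, 4.33e-06 and 8.46e-08, edgeR). The TF-1 increase was the larger against UT-7 (difference 0.29 ± 0.06, adjusted p = 0.000200) and against UCSD-AML1 (0.23 ± 0.06, adjusted p = 0.00229), and was 0.48 without cyclocreatine replicate 1.

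SLC25A4 (ANT1) was not called in any line. It stood at 22.8, 25.7, 25.6 and 23.5 CPM in TF-1 vehicle and at 26.9, 17.8, 21.4 and 19.02 CPM with cyclocreatine, with 1 treated library above all vehicle libraries and the other 3 below them (log2 change -0.20 ± 0.09, adjusted p = 0.0660, edgeR). Without that high library, cyclocreatine replicate 1, the TF-1 change was -0.33 with an adjusted p of 0.000582, and the change was also called with library totals (0.00784), RLE size factors (0.0451) and voom (0.0279). Means were 12.1 ± 0.344 against 10.6 ± 1.20 CPM in UT-7 (log2 change -0.19) and 10.2 ± 0.734 against 9.88 ± 0.853 CPM in UCSD-AML1 (-0.05). As a share of the 3 ADP/ATP carriers per kilobase, SLC25A6 went from a mean of 69.65% to 73.6% in TF-1, from 51.3% to 59.1% in UT-7 and from 54.1% to 57.4% in UCSD-AML1. The ranges over libraries did not overlap between vehicle and treated groups in any line. These shares were formed after the changes of the single genes were known and carry no test.

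The phosphate carrier SLC25A3 rose in all 3 lines as well. In TF-1 it was at 596, 644.5, 636 and 626 CPM with vehicle and at 853, 739.7, 775 and 740.2 CPM with cyclocreatine. UT-7 libraries held 475, 482, 476 and 474 CPM with vehicle and 559.7, 566, 570.2 and 577 CPM with cyclocreatine, and UCSD-AML1 libraries 454, 457, 447 and 446 CPM and 496, 497, 507 and 514.5 CPM. The groups were apart in every line, with changes of 0.31 ± 0.03, 0.25 ± 0.04 and 0.16 ± 0.03 (adjusted p = 7.24e-10, 1.38e-07 and 0.000331, edgeR).

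The citrate carrier SLC25A1, which exports citrate for lipid synthesis, was also called higher in all 3 lines. It was at 71.1, 76.7, 77.3 and 74.8 CPM in TF-1 vehicle and at 95.7, 81.1, 79.4 and 79.3 CPM with cyclocreatine, where replicate 1 was again the highest. The TF-1 call (0.16 ± 0.06, adjusted p = 0.0150, edgeR) was lost without that library (0.103), without TF-1 vehicle replicate 1 (0.0578) and with library totals alone as the scaling (0.206), which each leave 4 members higher in all 3 lines. In UT-7 SLC25A1 was at 41.9, 38.2, 43.2 and 39.4 CPM with vehicle and at 55.8, 56.2, 46.8 and 53.4 CPM with cyclocreatine. In UCSD-AML1 it was at 62.6, 60.0, 56.8 and 55.6 CPM with vehicle and at 69.8, 72.5, 69.9 and 68.4 CPM with cyclocreatine. The increases there were 0.38 ± 0.06 and 0.25 ± 0.06 (adjusted p = 4.15e-06 and 0.000549), with no overlap between groups.

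**Figure D2:**
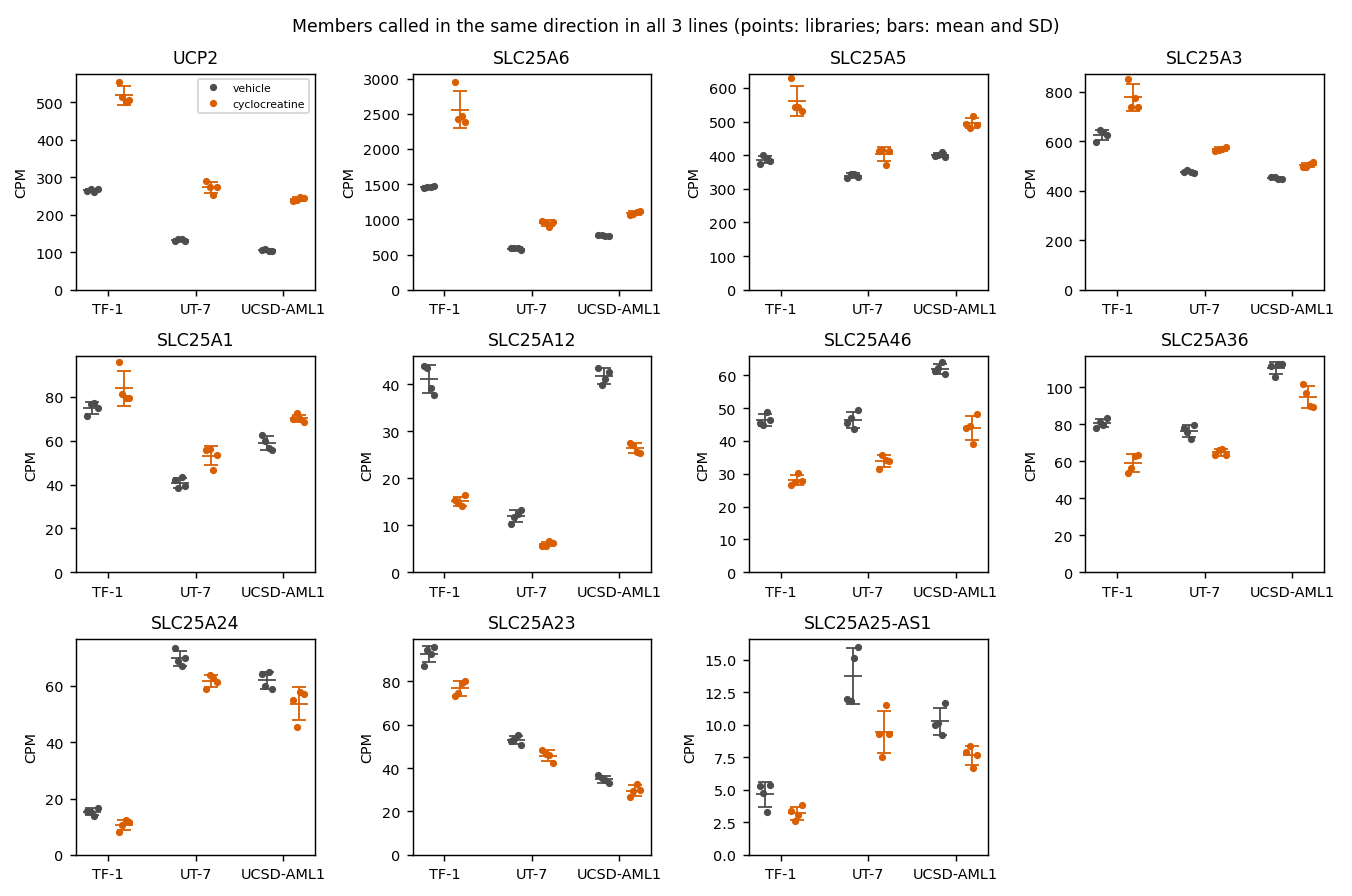
Level in CPM (vertical axis, linear from 0) of the 11 members called in the same direction in all 3 lines, for vehicle (grey) and cyclocreatine (orange), with points for libraries and bars for the mean and SD. The first 5 panels are members called higher, led by UCP2, and the other 6 are members called lower, led by SLC25A12.

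SLC25A12 had the largest decrease among members called in all 3 lines. It is a calcium-regulated carrier that exports aspartate in exchange for glutamate. TF-1 vehicle libraries held 43.8, 43.5, 39.3 and 37.8 CPM and cyclocreatine libraries 15.3, 14.8, 14.1 and 16.4 CPM. UT-7 vehicle libraries held 10.2, 11.7, 12.5 and 13.3 CPM and cyclocreatine libraries 5.62, 5.55, 6.56 and 6.33 CPM. UCSD-AML1 vehicle libraries held 43.6, 39.9, 41.1 and 42.6 CPM and cyclocreatine libraries 27.6, 27.1, 25.6 and 25.5 CPM. Treated libraries lay below all vehicle libraries in each line, by 2.70-fold, 1.98-fold and 1.58-fold on the means.

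The SLC25A12 changes were -1.43 ± 0.07, -0.98 ± 0.10 and -0.66 ± 0.07 (adjusted p = 4.81e-19, 2.15e-10 and 3.43e-10, edgeR). The decrease was larger in TF-1 than in UCSD-AML1 (difference -0.77 ± 0.10, adjusted p = 1.29e-07) and than in UT-7 (-0.45 ± 0.13, adjusted p = 0.00698). Its paralog SLC25A13 (citrin), which carries the same substrates, had smaller changes. SLC25A13 went from 86.0 ± 3.33 to 90.2 ± 4.08 CPM in TF-1 (log2 change 0.07, adjusted p = 0.230, edgeR), from 40.2 ± 2.05 to 45.2 ± 1.56 CPM in UT-7 (0.17 ± 0.05, adjusted p = 0.00863) and from 41.15 ± 1.89 to 37.1 ± 1.54 CPM in UCSD-AML1 (-0.15 ± 0.05, adjusted p = 0.0273), where the groups overlapped. The UCSD-AML1 call was lost without vehicle replicate 2 or 3 or cyclocreatine replicate 2, 3 or 4, with adjusted p of 0.0605 to 0.089.

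Per kilobase, the mean share of SLC25A12 in the 2-gene sum went from 33.5% to 15.04% in TF-1, from 23.8% to 12.3% in UT-7 and from 51.7% to 42.8% in UCSD-AML1, without overlap between groups. The shares were formed after the gene changes were known. The glutamate carrier SLC25A22 fell in UT-7, from 53.15 ± 1.85 to 39.7 ± 2.27 CPM (-0.42 ± 0.06, adjusted p = 7.36e-07, edgeR), and was not called in UCSD-AML1. In TF-1 its change was -0.10 (adjusted p = 0.198), and -0.16 (0.0217) without cyclocreatine replicate 1.

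**Figure D3:**
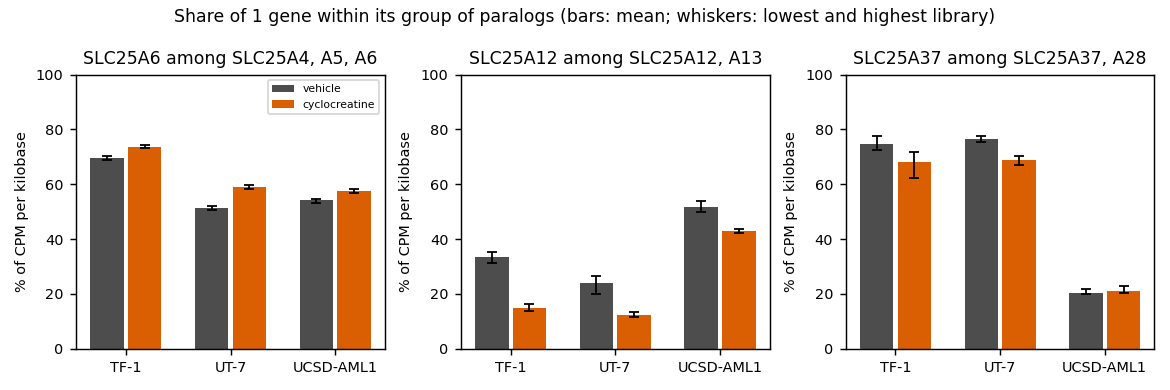
Share of 1 gene in the summed CPM per kilobase of its paralogs (vertical axis, percent), for vehicle (grey) and cyclocreatine (orange) in each line; bars are means of 4 libraries and whiskers the lowest and highest library. SLC25A6 takes a larger share and SLC25A12 a smaller share with cyclocreatine in all 3 lines, and the SLC25A37 share is 20.4% in UCSD-AML1 vehicle against 74.7% and 76.3% in TF-1 and UT-7 vehicle.

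SLC25A46, an outer membrane member tied to mitochondrial fission and fusion, fell in all 3 lines. It was at 45.5, 44.8, 48.9 and 46.4 CPM in TF-1 vehicle and at 26.7, 27.6, 30.3 and 27.7 CPM with cyclocreatine. In UT-7 it was at 45.6, 47.1, 43.7 and 49.3 CPM with vehicle and at 31.4, 35.6, 34.2 and 34.1 CPM with cyclocreatine. In UCSD-AML1 it was at 61.4, 62.3, 64.0 and 60.4 CPM with vehicle and at 43.8, 44.7, 39.2 and 48.1 CPM with cyclocreatine. No treated library reached the vehicle range of its line, and the changes were -0.73 ± 0.06, -0.46 ± 0.06 and -0.50 ± 0.06 (adjusted p = 5.68e-13, 6.60e-08 and 3.64e-09, edgeR).

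The pyrimidine nucleotide carrier SLC25A36 fell as well. TF-1 libraries held 78.3, 81.4, 79.5 and 83.3 CPM with vehicle and 53.8, 56.6, 62.9 and 63.2 CPM with cyclocreatine. UT-7 libraries held 78.1, 75.7, 72.0 and 79.9 CPM and 63.5, 66.3, 66.5 and 63.3 CPM, and UCSD-AML1 libraries 112, 106, 112 and 113 CPM and 102, 96.9, 90.1 and 89.5 CPM. The groups did not overlap, with changes of -0.45 ± 0.05, -0.24 ± 0.05 and -0.23 ± 0.05 (adjusted p = 1.69e-09, 0.000256 and 0.000240, edgeR). The other pyrimidine nucleotide carrier, SLC25A33, was called only in UT-7 (-0.19 ± 0.08, adjusted p = 0.0413), and that call was lost without any 1 of 7 of the 8 UT-7 libraries, with adjusted p up to 0.125.

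Among the carriers of ATP-Mg, adenine nucleotides and coenzyme A, SLC25A24 and SLC25A23 were called lower in all 3 lines. Both exchange ATP-Mg for phosphate under control of calcium. SLC25A24 was at 15.5, 15.1, 13.7 and 16.7 CPM in TF-1 vehicle and at 8.16, 10.6, 12.3 and 11.6 CPM with cyclocreatine. It was at 73.6, 68.8, 67.1 and 70.0 CPM against 59.1, 63.9, 63.0 and 61.6 CPM in UT-7, and at 64.3, 60.0, 65.1 and 58.9 CPM against 54.9, 45.3, 57.7 and 57.0 CPM in UCSD-AML1. The treated libraries lay below the vehicle libraries in each line (-0.52 ± 0.10, -0.18 ± 0.07 and -0.21 ± 0.07; adjusted p = 2.23e-05, 0.0318 and 0.0121, edgeR). The UT-7 call was lost without vehicle replicate 1 or 4 or cyclocreatine replicate 1, 3 or 4 (adjusted p 0.05 to 0.104), and the UCSD-AML1 call without cyclocreatine replicate 2 (0.114).

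SLC25A23 was at 87.2, 94.3, 92.4 and 95.8 CPM in TF-1 vehicle and at 73.0, 74.4, 79.4 and 80.2 CPM with cyclocreatine. In UT-7 the values were 52.5, 53.5, 55.1 and 50.6 CPM against 48.2, 46.4, 45.9 and 42.3 CPM, and in UCSD-AML1 36.8, 35.4, 34.3 and 33.0 CPM against 26.4, 29.4, 32.6 and 30 CPM. The groups did not overlap and the decreases were of like size, at -0.27 ± 0.05, -0.21 ± 0.06 and -0.24 ± 0.06 (adjusted p = 2.95e-05, 0.00205 and 0.00166, edgeR). A further relative, SLC25A25, fell in UT-7 (-0.32 ± 0.07, adjusted p = 0.000159) and was not called in UCSD-AML1. Its TF-1 change of -0.17 missed the threshold (adjusted p = 0.0521) and passed it without cyclocreatine replicate 1 (-0.18, 0.0460).

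The antisense RNA SLC25A25-AS1 was also called lower in all 3 lines. It was at 5.30, 4.77, 3.28 and 5.33 CPM in TF-1 vehicle and at 3.35, 2.59, 3.07 and 3.79 CPM with cyclocreatine, where the groups overlapped. It was at 12.0, 11.8, 15.2 and 16.0 CPM against 9.29, 7.56, 11.5 and 9.31 CPM in UT-7, and at 9.95, 10.1, 9.24 and 11.7 CPM against 7.94, 8.40, 6.66 and 7.64 CPM in UCSD-AML1, without overlap. The changes were -0.52 ± 0.17, -0.54 ± 0.13 and -0.42 ± 0.13 (adjusted p = 0.00989, 0.000664 and 0.0108, edgeR), and the UCSD-AML1 call was lost without vehicle replicate 4 (0.0514) or cyclocreatine replicate 3 (0.0502). The use of strand in counting was not given in the sources used here, and reads of an antisense gene and of its partner cannot be told apart.

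Promoter windows are described for the members with the largest changes that all 3 lines shared, UCP2 and SLC25A6 among those that rose and SLC25A12 and SLC25A46 among those that fell. Each window is the 250 bases before an annotated start in RefSeq (build GRCh38.p14), read 5' to 3' on the gene's strand, and UCP2 has 2 such windows. The windows are UCP2 at chr11:73982844-73983093 and chr11:73983203-73983452 (minus strand), SLC25A6 at chrX:1392114-1392363 (minus strand), SLC25A12 at chr2:171894245-171894494 (minus strand) and SLC25A46 at chr5:110738757-110739006 (plus strand). GENCODE 29 places other starts near some of them: the nearest start of the same gene lay 10 bases after the SLC25A6 window's start, 105 bases before that of the second UCP2 window and 13 bases before that of SLC25A46. The first UCP2 window and the SLC25A6 window lie wholly inside GENCODE exons and are described without their letters. Of the other 3 the stretch outside every GENCODE exon is printed, which is chr11:73983308-73983452 for UCP2, chr2:171894253-171894494 for SLC25A12 and chr5:110738957-110738993 for SLC25A46. Capitals mark matches on either strand to the GC box (GGGCGG), the CCAAT box (CCAAT) or the E-box (CACGTG).
UCP2 window 2: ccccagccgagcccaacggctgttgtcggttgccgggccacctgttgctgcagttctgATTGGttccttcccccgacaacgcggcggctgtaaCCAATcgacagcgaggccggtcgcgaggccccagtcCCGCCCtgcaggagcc
SLC25A12: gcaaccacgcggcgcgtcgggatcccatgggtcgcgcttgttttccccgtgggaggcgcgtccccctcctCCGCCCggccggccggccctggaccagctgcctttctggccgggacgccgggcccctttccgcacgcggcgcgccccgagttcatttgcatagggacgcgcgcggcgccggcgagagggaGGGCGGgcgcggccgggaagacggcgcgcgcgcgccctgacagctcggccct
SLC25A46: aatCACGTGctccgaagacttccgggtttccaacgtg

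The windows of UCP2, SLC25A6 and SLC25A12 are rich in G and C (72%, 66.8%, 76.8% and 77.2% in the order given) and hold GC boxes, 3 and 1 in the UCP2 windows, 4 in SLC25A6 and 2 in SLC25A12. The second UCP2 window and the SLC25A6 window also hold 2 CCAAT boxes each. The SLC25A46 window has 48.8% G and C, no GC box, and 1 E-box. In the table of 34961 windows, 40 members had 53 windows, with a median of 66.8% G and C beside 58.4% over all windows. A GC box was present in 36 of the 53 windows (67.9%, beside 42.7% of all), a CCAAT box in 21 (39.6%, beside 32%) and an E-box in 7 (13.2%, beside 6.35%).

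The cyclic AMP response element (TGACGTCA) was found in 3 windows (5.66%, beside 1.65%) and the sterol response element (TCACNCCAC) in 1 (1.89%, beside 0.887%). The NRF1 motif and the estrogen-related receptor element (TCAAGGTCA) were in none, beside 1.03% and 0.32% of all windows. The letters of these motifs were searched exactly on both strands, and none of the motifs contains another. All 6 windows of the 5 members called higher in all 3 lines held a GC box, as did 3 of the 7 windows of the members called lower in all 3. Over all windows of members the share was 67.9%. These sets are small and come from the calls in the same data, and the difference between them was not tested. These matches describe the letters and show no binding.

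The change in SLC25A37 differed between the lines. SLC25A37 was at 178, 164, 182 and 175 CPM in TF-1 vehicle and at 129, 124, 128 and 145 CPM with cyclocreatine. In UT-7 it was at 223, 229.8, 227 and 215 CPM with vehicle and at 121, 125, 115 and 119 CPM with cyclocreatine. In UCSD-AML1 it was at 26.2, 25.0, 25.1 and 25.6 CPM with vehicle and at 28.5, 27.0, 28.4 and 28.1 CPM with cyclocreatine. The treated libraries were below the vehicle libraries in TF-1 and UT-7 and above them in UCSD-AML1, in each case without overlap.

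SLC25A37 fell by 0.41 ± 0.04 in TF-1 and by 0.90 ± 0.04 in UT-7 on the log2 scale (adjusted p = 2.08e-10 and 2.13e-19, edgeR), and its change of 0.14 in UCSD-AML1 missed the threshold (adjusted p = 0.0561). Fitted on UCSD-AML1 alone that change was 0.15 with an adjusted p of 0.0226. The differences in effect were 0.49 ± 0.06 between TF-1 and UT-7 (adjusted p = 9.83e-08), -0.55 ± 0.07 between TF-1 and UCSD-AML1 (1.95e-07) and -1.04 ± 0.07 between UT-7 and UCSD-AML1 (8.06e-14, edgeR). SLC25A28 was called in UT-7 only, from 20.9 ± 1.42 to 16.5 ± 1.005 CPM (-0.35 ± 0.10, adjusted p = 0.00270). In TF-1 SLC25A28 was at 15.5, 18.7, 17.2 and 19.95 CPM with vehicle and at 23.4, 16.8, 16.8 and 17.1 CPM with cyclocreatine, and its change of 0.06 became -0.08 without the high cyclocreatine replicate 1. In UCSD-AML1 it went from 29.9 ± 1.92 to 31.5 ± 2.04 CPM (0.07).

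The summed erythroid markers were lower with cyclocreatine in all 3 lines, and SLC25A37 was called lower in TF-1 and UT-7 and not in UCSD-AML1. Of 8 markers, 3 rose and 5 fell in TF-1, 6 fell and none rose in UT-7, and 1 rose and 2 fell in UCSD-AML1 (edgeR, adjusted over all genes). Their summed level was 702 to 738 CPM with vehicle and 652 to 670.0 CPM with cyclocreatine in TF-1. It was 336 to 355 CPM and 265 to 281.5 CPM in UT-7, and 90.9 to 94.6 CPM and 64.15 to 67.7 CPM in UCSD-AML1. HEMGN, an erythroid transcription regulator, fell in all 3 lines, and AHSP was at 0 in UCSD-AML1. The part of these markers in the SLC25A37 change was not tested.

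Of 17 tested genes of heme and iron-sulfur cluster synthesis and iron uptake, 6 rose and 9 fell in TF-1, 1 rose and 10 fell in UT-7, and 3 rose and 6 fell in UCSD-AML1, where 56%, 45.9% and 40.5% of all genes were called. Their median log2 changes were -0.10, -0.24 and 0.04, beside -0.01, 0 and 0 over all genes. The transferrin receptor TFRC, which brings iron into the cell, fell in all 3 lines, from 5292 to 2370 CPM in TF-1, 3487 to 1965 CPM in UT-7 and 580 to 361 CPM in UCSD-AML1 (log2 change -1.16, -0.83 and -0.68). STEAP3, an endosomal ferrireductase, also fell in all 3 lines (-0.54 ± 0.05, -0.51 ± 0.06 and -0.87 ± 0.08). ISCU, the scaffold for iron-sulfur clusters, rose in TF-1 (0.56 ± 0.06) and UT-7 (0.17 ± 0.06). In UCSD-AML1 its change of 0.05 ± 0.05 was not called.

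**Figure D4:**
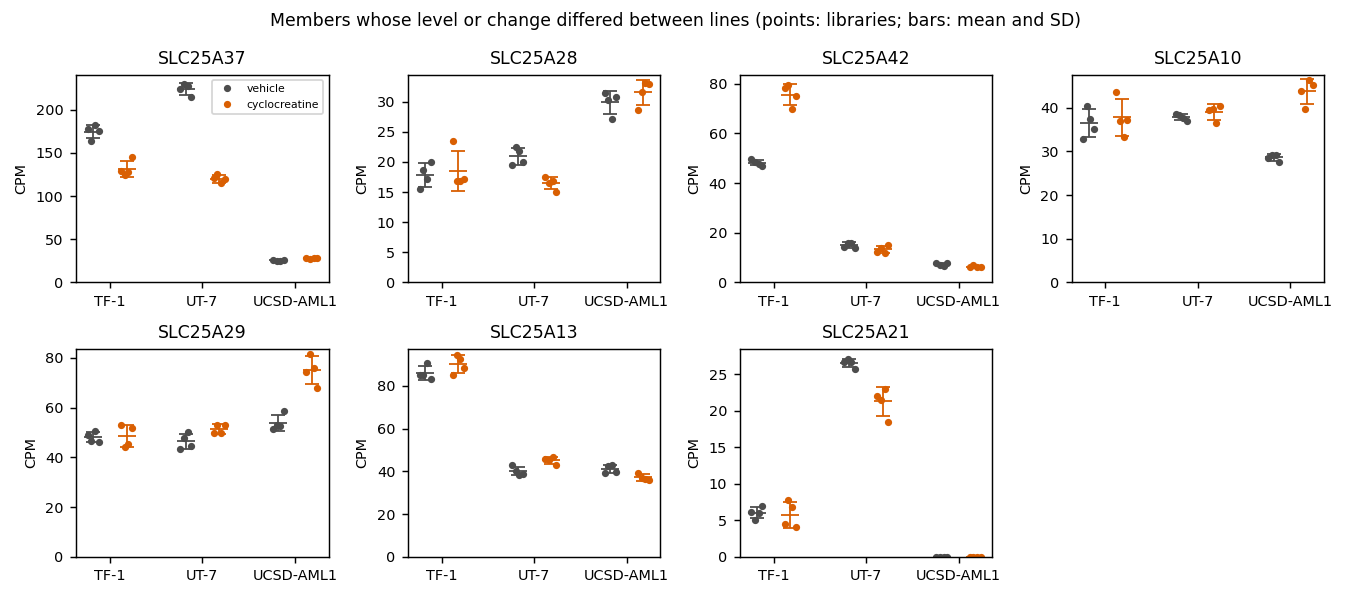
Level in CPM (vertical axis, linear from 0) of 7 members whose level or change differed between lines, for vehicle (grey) and cyclocreatine (orange), with points for libraries and bars for the mean and SD. SLC25A37 is lower with cyclocreatine in TF-1 and UT-7 from vehicle means of 175 and 224 CPM and has a vehicle mean of 25.5 CPM in UCSD-AML1, SLC25A42 is higher with cyclocreatine in TF-1 alone, and SLC25A10 and SLC25A29 are higher in UCSD-AML1.

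Tests of the difference in effect called 15 members between TF-1 and UT-7 (10 with the higher change in TF-1, 5 with the lower), where 27.5% of all genes were called. They called 16 members between TF-1 and UCSD-AML1 (6 and 10; 29.1% of all genes) and 9 between UT-7 and UCSD-AML1 (2 and 7; 23% of all genes). In TF-1 against UT-7 the count of 5 fell to 2 without TF-1 vehicle replicate 4 or UT-7 cyclocreatine replicate 2. Each pair of these tests shares the libraries of 1 line, so the counts are not independent of each other.

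SLC25A42, the coenzyme A carrier, rose in TF-1 only. It was at 49.5, 48.6, 47.8 and 46.8 CPM in TF-1 vehicle and at 78.3, 79.3, 69.6 and 75.1 CPM with cyclocreatine, without overlap (0.65 ± 0.06, adjusted p = 8.03e-12, edgeR). In UT-7 it was at 14.2, 15.9, 16.1 and 13.9 CPM against 12.4, 13.9, 11.9 and 15.2 CPM, and in UCSD-AML1 at 7.91, 7.20, 6.76 and 7.91 CPM against 6.10, 6.91, 6.07 and 6.32 CPM. The groups overlapped in these lines (-0.17 ± 0.08, adjusted p = 0.0889, and -0.23 ± 0.10, adjusted p = 0.0705). The UT-7 change was called with library totals (-0.21, adjusted p = 0.0364) and without UT-7 cyclocreatine replicate 4 (-0.24, adjusted p = 0.0239), and without UCSD-AML1 vehicle replicate 3 the UCSD-AML1 change (-0.27, adjusted p = 0.0475). The TF-1 effect differed from that in UT-7 by 0.82 ± 0.10 (adjusted p = 1.01e-07) and from that in UCSD-AML1 by 0.88 ± 0.12 (adjusted p = 3.15e-07).

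SLC25A13 was called higher in UT-7 and lower in UCSD-AML1, and its effect differed by 0.32 ± 0.08 between UT-7 and UCSD-AML1 (adjusted p = 0.00174).

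SLC25A10, the dicarboxylate carrier, rose in UCSD-AML1 only, from 28.5, 29.1, 29.2 and 27.7 CPM to 43.8, 39.8, 46.3 and 45.1 CPM (0.61 ± 0.07, adjusted p = 2.16e-09, edgeR). In TF-1 it was at 32.9, 40.3, 37.4 and 35.04 CPM against 43.5, 37.0, 33.3 and 37.2 CPM, and in UT-7 at 38.6, 38.4, 37.6 and 36.9 CPM against 39.5, 39.7, 36.4 and 40.3 CPM. The groups were apart in UCSD-AML1 and overlapped in the other lines, and the effect in UT-7 differed from that in UCSD-AML1 by -0.57 ± 0.10 (adjusted p = 1.85e-05) and that in TF-1 by -0.56 ± 0.10 (adjusted p = 1.95e-05).

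SLC25A29, a carrier of basic amino acids, was also called in UCSD-AML1 alone. It rose in UCSD-AML1 from 51.4, 52.9, 52.6 and 58.6 CPM to 74.3, 81.8, 75.8 and 68.1 CPM (0.48 ± 0.06, adjusted p = 3.06e-08, edgeR), without overlap. It was at 48.0 ± 1.97 against 48.6 ± 4.49 CPM in TF-1 (0.02) and 46.5 ± 3.07 against 51.4 ± 1.95 CPM in UT-7 (0.14, adjusted p = 0.0659, 0.00988 in a fit on the compared groups only and 0.0308 without UT-7 vehicle replicate 3). The effect in UCSD-AML1 was the larger against TF-1 (-0.46 ± 0.09, adjusted p = 8.31e-05) and against UT-7 (-0.34 ± 0.09, adjusted p = 0.00367).

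Among the other amino acid, acylcarnitine and dicarboxylate carriers, the glycine carrier SLC25A38, which supplies heme synthesis, rose in TF-1 from 44.5 ± 3.04 to 59.5 ± 5.97 CPM and in UCSD-AML1 from 39.3 ± 1.74 to 45.5 ± 2.50 CPM (0.42 ± 0.06 and 0.21 ± 0.06). Its change in UT-7 was 0.01. SLC25A20, which carries acylcarnitines for fatty acid oxidation, rose in TF-1 from 9.96 ± 0.640 to 13.7 ± 1.11 CPM (0.46 ± 0.10, adjusted p = 0.000112, edgeR). The oxoglutarate carrier SLC25A11, the partner of the aspartate/glutamate carriers in the malate-aspartate shuttle, rose in TF-1 (0.21 ± 0.05) and UT-7 (0.16 ± 0.05). SLC25A21 fell in UT-7 from 26.6 ± 0.559 to 21.3 ± 1.95 CPM (-0.32 ± 0.11, adjusted p = 0.0191), a call that was lost without cyclocreatine replicate 4 (0.0883).

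Of the cofactor carriers, SLC25A39 rose in UCSD-AML1, at 103 ± 4.45 CPM with vehicle and 123 ± 5.03 CPM with cyclocreatine (0.26 ± 0.05, adjusted p = 6.48e-05, edgeR) and SLC25A40, its paralog, fell in UT-7 from 51.2 ± 2.598 to 39.8 ± 1.16 CPM (-0.36 ± 0.07, adjusted p = 1.84e-05). The TF-1 call of SLC25A39 (0.12, adjusted p = 0.0315) was lost with library totals (0.455), RLE size factors (0.0674), DESeq2 (0.0848), a fit on the compared groups only (0.101) and the replicate block (0.0521). It was also lost without vehicle replicate 1, 3 or 4 or cyclocreatine replicate 1 (0.0510 to 0.239). The UCSD-AML1 call of SLC25A40 (0.0158) was lost without vehicle replicate 4 or cyclocreatine replicate 1 or 2 (0.0588 to 0.0633). The folate carrier SLC25A32 fell in UT-7 (-0.28 ± 0.05), as did the peroxisomal member SLC25A17 (-0.29 ± 0.06). SLC25A51, which carries NAD into the matrix, fell in TF-1 from 9.78 ± 0.913 to 7.64 ± 0.974 CPM (-0.36 ± 0.11, adjusted p = 0.00772), and its near copy SLC25A52 leaves that level uncertain. SLC25A53 fell in TF-1 from 2.22 ± 0.121 to 0.953 ± 0.573 CPM (-1.27 ± 0.25, adjusted p = 4.64e-05), and SLC25A21-AS1 from 1.59 ± 0.490 to 0.541 ± 0.195 CPM (-1.51 ± 0.33, adjusted p = 0.000193), both on few counts (at most 40 counts in a TF-1 library for SLC25A53 and 36 for SLC25A21-AS1).

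The family's summed level went from 4317 ± 46.2 to 5943 ± 420 CPM in TF-1, from 3072 ± 36.2 to 3539 ± 79.2 CPM in UT-7 and from 3035 ± 24.1 to 3653 ± 60.5 CPM in UCSD-AML1. Per kilobase, SLC25A3, SLC25A5, SLC25A6 and UCP2 together made up 71.5% of the protein-coding members' sum in TF-1 vehicle and 79.6% with cyclocreatine. Their joint share was 61.4% and 70.4% in UT-7, and 66.2% and 71.1% in UCSD-AML1. The ranges of both measures did not overlap between vehicle and treated groups, and these sums carry no test. SLC25A3, SLC25A5, SLC25A6 and UCP2 were each called higher in every line. The rise in their joint share therefore restates those changes and is no separate result.

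Genes that act beside the carriers were taken from lists of partners. Of 16 components that import and insert carriers, 8 rose and 1 fell in TF-1, 3 rose and 7 fell in UT-7, and 3 rose and 4 fell in UCSD-AML1 (median log2 change 0.10, -0.05 and -0.02). Over all genes 56%, 45.9% and 40.5% were called in the 3 lines and the medians were -0.01, 0 and 0. TIMM10B, a chaperone of the intermembrane space, fell in all 3 lines (-1.02 ± 0.06, -0.77 ± 0.06 and -0.33 ± 0.05), and C19orf52, the gene of the carrier translocase subunit TIM29, rose in all 3 (0.57 ± 0.07, 0.35 ± 0.06 and 0.38 ± 0.07). Of 20 other mitochondrial channels and transporters, 11 rose and 3 fell in TF-1, 6 rose and 4 fell in UT-7, and 8 rose and 1 fell in UCSD-AML1, with medians of 0.18, 0.08 and 0.07 and the background just given. Among them the calcium uniporter pore MCU rose in all 3 lines (0.61 ± 0.05, 0.41 ± 0.05 and 0.31 ± 0.05), as did MPC2 of the pyruvate carrier (0.85 ± 0.06, 0.46 ± 0.05 and 0.24 ± 0.06). The sideroflexin SFXN3 fell in TF-1 (-0.91 ± 0.07) and UCSD-AML1 (-0.30 ± 0.05) and was at -0.11 ± 0.06 in UT-7, and SFXN4 fell in UT-7 (-0.40 ± 0.07).

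Of 12 partners in the malate-aspartate shuttle and citrate export, 9 rose and 2 fell in TF-1, 5 rose and 2 fell in UT-7, and 7 rose and 2 fell in UCSD-AML1 (medians 0.17, 0.05 and 0.10, beside 56%, 45.9% and 40.5% of all genes called and medians of -0.01, 0 and 0). GOT2, the mitochondrial aspartate aminotransferase, rose in each line (0.33 ± 0.04, 0.23 ± 0.04 and 0.17 ± 0.04). 

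Markers of other lineages moved in few genes. Of 4 tested granulocyte and monocyte markers, 2 rose in TF-1 and 1 in each of the other lines, and none fell. Their summed level over 8 genes was 108 to 116 CPM with vehicle and 140.3 to 148.5 CPM with cyclocreatine in TF-1. It was 79.6 to 86.4 CPM and 75.6 to 81.4 CPM in UT-7, and 57.75 to 60.75 CPM and 80.7 to 83.4 CPM in UCSD-AML1. CSF3R, the receptor of granulocyte colony-stimulating factor, rose in each line (1.66 ± 0.14, 1.36 ± 0.19 and 0.53 ± 0.06), and ELANE and S100A8 were at 0 in both TF-1 and both UCSD-AML1 groups. Of 5 tested lymphoid markers, none was called in TF-1 or UT-7 and CD2 fell in UCSD-AML1. Of 4 tested genes on a list set up for stromal and epithelial cells, COL1A1 and PECAM1 rose in TF-1 and none was called in the other lines. PECAM1 is not specific to those cells. The part of these markers in the changes of the carriers was not tested.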

How the data were processed

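Gene-level read counts from 24 bulk RNA-seq libraries were analysed, 4 for each of the 6 groups given by the sample labels. The values are the raw counts per gene symbol that the authors deposited. The submitters' processing notes name FastQC, TopHat2 and RSEM and the builds GRCh37 and hg19. Their versions and roles, the handling of reads that map to several copies, and strand use were not given in the sources used here.

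Members and gene lists were chosen with earlier results of these data known. Genes were filtered by group (filterByExpr, minimum count 10, minimum total 15), which kept 99.93% or more of each library's counts. One model with a mean for each of the 6 groups was fitted to 14588 genes with edgeR 4.0.16 (TMM scaling, robust quasi-likelihood test) in R 4.3.3. From it came 3 cyclocreatine effects, 3 differences between vehicle groups and 3 differences in effect, each adjusted over all genes by Benjamini-Hochberg with a threshold of 0.05. The fitted median biological coefficient of variation was 0.0578. Library totals of 12794998 to 21200662 counts set the precision, and the floor of 3 counts covers counting error only. Replicate libraries differed by more than counting noise in all 36 pairs (chi-square per degree of freedom 1.29 to 19.3), so none was merged. The fit was tested on simulated counts with known changes.

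Values in every library are given for UCP2, the ADP/ATP, phosphate and mitoferrin members, the members called in 1 direction in all 3 lines, and, per line, the 4 members per direction with the largest changes among those averaging 5 CPM or more, in full or as mean and SD. For each difference in effect the 3 called members with the smallest p are named. Up to 4 genes of each partner or marker list with the smallest p in a line may be named. A few genes that these rules name are not reported here. Levels per kilobase use transcript lengths from GENCODE 29. Alternatives were library totals, RLE size factors, no filter, DESeq2 1.42.0, voom in limma 3.58.1, a fit on the groups compared only, a replicate block, and leaving out each library. Tables and figures were made in Python 3.11.15 with pandas 2.3.3 and matplotlib 3.10.9. Promoter windows came from a RefSeq table on GRCh38.p14, and no coordinates were taken from the deposited data.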

Additional observations from a re-analysis of the deposited data

Results flagged for a closer look

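For 17 members, each of the 6 groups of 4 libraries was checked for a library far from the others, which made 102 checks. Such a library was found in 5 checks. Chance alone flags about 1 in 20 separate checks, but these share libraries and are not independent of each other. TF-1 cyclocreatine replicate 1 was the high library in 4 of the 5 flagged checks. It had 2953 CPM of SLC25A6 where the other 3 libraries had 2386 to 2476 CPM, and 627.9 CPM of SLC25A5 where the others had 530.5 to 542.5 CPM. It also had 23.42 CPM of SLC25A28, beside 16.8 to 17.1 CPM, and 95.7 CPM of SLC25A1, beside 79.3 to 81.1 CPM. The remaining one was UT-7 cyclocreatine replicate 3, which was low for SLC25A5 at 371.4 CPM beside 411 to 414 CPM.

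Several responses to cyclocreatine differed between lines by the test of the difference itself (edgeR, log2 scale). Between TF-1 and UT-7, 15 members differed, among them SLC25A42 (0.82) and SLC25A37 (0.49). Between TF-1 and UCSD-AML1, 16 members differed, led by SLC25A42 (0.88), SLC25A12 (-0.77) and SLC25A37 (-0.55). Between UT-7 and UCSD-AML1, 9 members differed, led by SLC25A37 (-1.04), SLC25A10 (-0.57) and SLC25A13 (0.32).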

How the results depend on the processing

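The counts of members called stayed within 1.5 times of those reported under each alternative, with the exceptions given here. Members with the lower effect in TF-1 than in UT-7 numbered 5, and 3 when only the groups compared were fitted (2 to 6 with 1 library left out). Members with the lower effect in UT-7 than in UCSD-AML1 numbered 7, and 14 both with library totals and with only the groups compared. Members called lower in UCSD-AML1 numbered 5 to 8 with 1 library left out. Changes that crossed 0 had not passed the test: in TF-1, SLC25A28 was at -0.03, SLC25A29 at -0.06 and SLC25A10 at -0.02 with library totals. Without TF-1 cyclocreatine replicate 1 they were at -0.08, -0.02 and -0.02, SLC25A29 was at -0.01 without TF-1 cyclocreatine replicate 4, SLC25A28 at -0.00 without TF-1 vehicle replicate 1, and SLC25A4 in UCSD-AML1 at 0.00 without vehicle replicate 1. With 1 library left out the ranges were -0.10 to 0.00 for SLC25A4 in UCSD-AML1, and in TF-1 -0.08 to 0.12 for SLC25A28, -0.02 to 0.06 for SLC25A29 and -0.02 to 0.11 for SLC25A10. The cause of these shifts was not tested.

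Replicate numbers did not pair the libraries: correlations of same-numbered libraries ran from -0.048 to 0.0715, with 0 of 12 over 0.1. With the replicate block the members called higher and lower were 11 and 10 in TF-1, 8 and 16 in UT-7 and 10 and 8 in UCSD-AML1. Under the block, 1 called effect and 7 of the 40 called differences in effect lost their call. UCP3 and SLC25A48 rest on few counts, and neither was called with cyclocreatine in any line, which does not show that their levels stayed the same.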
